A study of Mus musculus with 11 samples.

Results

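The regions of open chromatin at 10 genes that govern or mark blood vessel endothelium were followed in epithelial cells of the fetal mouse lung. The genes are Tal1, Erg, Sox17 and Sox18 (transcription factors), Kdr and Flt1 (VEGF receptors), Tek and Tie1 (the angiopoietin receptor and its partner), Ptprb (a receptor phosphatase) and Cdh5 (the adhesion protein VE-cadherin). A region belonged to a gene if that gene's body was the nearest protein-coding one and lay at most 100 kb away, in build mm10. The regions were chosen by the presence of a called peak in at least 1 of 11 peak lists, and the genes with genotype results of these libraries already known. This gave 65 regions of 101557 in all, and every gene had at least 1. Regions are numbered along the chromosome within each gene.

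Lungs were taken at E17.5, and cells were enriched with microbeads against EpCAM, a surface protein of epithelium. Nuclei of 50000 captured cells per library went into ATAC-seq, which marks accessible DNA by where a transposase inserts. There were 6 libraries labelled Control and 5 labelled Prdm3/16KO, in which floxed Prdm3 (symbol Mecom) and Prdm16 were deleted with ShhCre. The breeding described in the labels paired Prdm3fl/fl, Prdm16fl/wt, ShhCre+ sires with Prdm3fl/fl, Prdm16fl/fl dams. Fetuses of both groups from this cross were therefore Prdm3fl/fl and carried a floxed Prdm16 allele, and which of the possible genotypes served as controls is not given in the sources used here. Shh is expressed in the lung epithelium, so ShhCre is used to recombine floxed alleles there and not in endothelium. The labels do not say if libraries were made from different animals, so p-values measure the spread between libraries, which may be technical.

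Endothelial cells line vessels and are specified by ETS, SOX and bHLH factors that switch on each other and the receptor genes. VEGF signals through Kdr, while Flt1 binds VEGF tightly and limits its action. Angiopoietins act through Tek, also called Tie2, whose activity Tie1 modulates and Ptprb restrains. These genes were grouped as normally silent in epithelium, although Sox17 also acts in endoderm, and their expression was not measured here. An open region shows only that a transposase can reach the DNA, not that the gene is transcribed.

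The deposited lists held 79525 to 112297 peaks in controls and 72935 to 85704 in knockouts, and since they give no read counts the sequencing depth is unknown. The deletion itself cannot be read from peaks while it is not known which exons were removed. To set libraries of different list length side by side, the 72935 strongest peaks of each were used. A region's rank score in a library runs from 1, for the top peak, down to near 0, for the last one used, and is set to 0 without a peak. Among these peaks the 10 genes held 34 to 45 per control (41.2 ± 4.12, SD, n = 6) and 36 to 40 per knockout (38.0 ± 1.87, SD, n = 5). The ranges overlap. In a bulk library more cells with an open region and wider opening per cell cannot be told apart.

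The start of Tek was the one annotated start among these genes with a peak in every control and in no knockout. The RefSeq promoter table (GRCm38.p6) lists starts for Tal1, Tek, Tie1, Kdr, Flt1 and Erg, each with the 250 bases before and 50 after the start. Peaks overlapped the Tek promoter by at least 100 bp in 6 of 6 controls and 0 of 5 knockouts, and those of Kdr and Flt1 in 6 of 6 and 5 of 5. The Tie1 promoter had a peak in 0 libraries. These 4 promoters are shown because they hold the contrast between a start that lost its peak, starts that kept it and a start without one. They are written 5′ to 3′ along the gene, and capitals mark matches, on either strand, to the 6-letter motifs of ETS (CGGAAG and, as a second form, AGGAAG), of GATA factors (AGATAA), of SOX (ACAAAG and, as a second form, ACAATG) and of FOX (TAAACA) and NKX2-1 (CACTTG) factors.
Tek promoter, chr4:94739039-94739338, plus strand: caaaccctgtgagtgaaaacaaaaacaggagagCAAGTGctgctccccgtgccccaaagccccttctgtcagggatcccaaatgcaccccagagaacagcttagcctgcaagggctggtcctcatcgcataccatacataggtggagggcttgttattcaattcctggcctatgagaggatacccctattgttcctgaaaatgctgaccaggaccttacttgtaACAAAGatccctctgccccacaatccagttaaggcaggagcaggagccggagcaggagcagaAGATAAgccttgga
Kdr promoter, chr5:75978406-75978705, minus strand: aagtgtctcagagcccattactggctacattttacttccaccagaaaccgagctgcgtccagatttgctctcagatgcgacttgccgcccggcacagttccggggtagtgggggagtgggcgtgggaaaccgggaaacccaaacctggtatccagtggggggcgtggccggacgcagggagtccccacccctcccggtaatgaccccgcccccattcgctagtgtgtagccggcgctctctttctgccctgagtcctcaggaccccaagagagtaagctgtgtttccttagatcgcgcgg
Flt1 promoter, chr5:147725962-147726261, minus strand: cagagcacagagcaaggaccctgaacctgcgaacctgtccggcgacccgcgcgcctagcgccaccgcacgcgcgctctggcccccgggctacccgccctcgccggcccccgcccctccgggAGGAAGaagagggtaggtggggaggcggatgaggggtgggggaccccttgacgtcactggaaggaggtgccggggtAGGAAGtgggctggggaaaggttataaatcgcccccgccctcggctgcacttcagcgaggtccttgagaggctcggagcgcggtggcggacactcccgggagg
Tie1 promoter, chr4:118489800-118490099, minus strand: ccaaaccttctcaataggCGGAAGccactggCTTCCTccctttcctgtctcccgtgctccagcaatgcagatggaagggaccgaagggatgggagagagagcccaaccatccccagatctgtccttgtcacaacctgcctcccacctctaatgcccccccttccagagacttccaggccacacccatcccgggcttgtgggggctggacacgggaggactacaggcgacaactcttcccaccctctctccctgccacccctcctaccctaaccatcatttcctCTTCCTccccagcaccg

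The Tek promoter held 1 match each for NKX2-1, SOX and GATA and none for ETS. The Flt1 promoter held 2 ETS matches and the Tie1 promoter 3, while the Kdr promoter held no capitalised match. Of 32851 RefSeq promoters of this length, 16.9% held CGGAAG, 35.4% AGGAAG, 11.2% AGATAA, 18.7% ACAAAG, 12.6% ACAATG, 13.4% TAAACA and 13.6% CACTTG. Also searched were the E-box CANNTG, which contains CACTTG as 1 of its forms and was in 72.3%, and the SP/KLF motif GGGCGG, in 35.7%. The E-box matched 2 times in Tek and 1 time in Kdr and in Tie1, and GGGCGG matched 2 times in Kdr and 3 in Flt1. A match is a description of letters and does not show that a factor binds.

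With the settings used here, equal numbers of regions of the 10 genes were called lower and higher, and the called gains had the larger median. The balance of the counts varied with the processing. Of the 65 regions, 45 had a peak in at least 3 libraries and were tested, and 20 had one in 1 or 2 libraries only. In the limma fit over all 83262 tested regions of the genome, 11 member regions were lower and 11 higher in the knockout, each 24.4% of the 45. Of all tested regions, 20.8% were lower and 17.0% higher, so both member shares lay a little above the background, a gap that was not tested. The median called fall was -0.220 among members and -0.276 over all regions, and the median called rise was 0.490 and 0.316. Rises of more than 0.5 were called in 5 of 45 members, against 3.83% of all regions, and falls of more than 0.5 in 1 member, against 2.44%. Because the genes were picked with these results known, the counts are descriptive. The filter took both groups together, so a region could pass it through 1 group alone. Peaks in fewer than 3 controls were found at the higher regions 4 of Tal1, 3 and 7 of Tek and 2 of Tie1. The same held for higher regions 5 and 7 of Erg and 8 and 9 of Ptprb. Lower regions 2 of Tek, 10 and 14 of Erg, 12 of Flt1 and 1 of Sox18 had peaks in fewer than 3 knockouts. Such regions passed the filter only through the group where they were high, so their calls are descriptive as well.

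**Figure D1:**
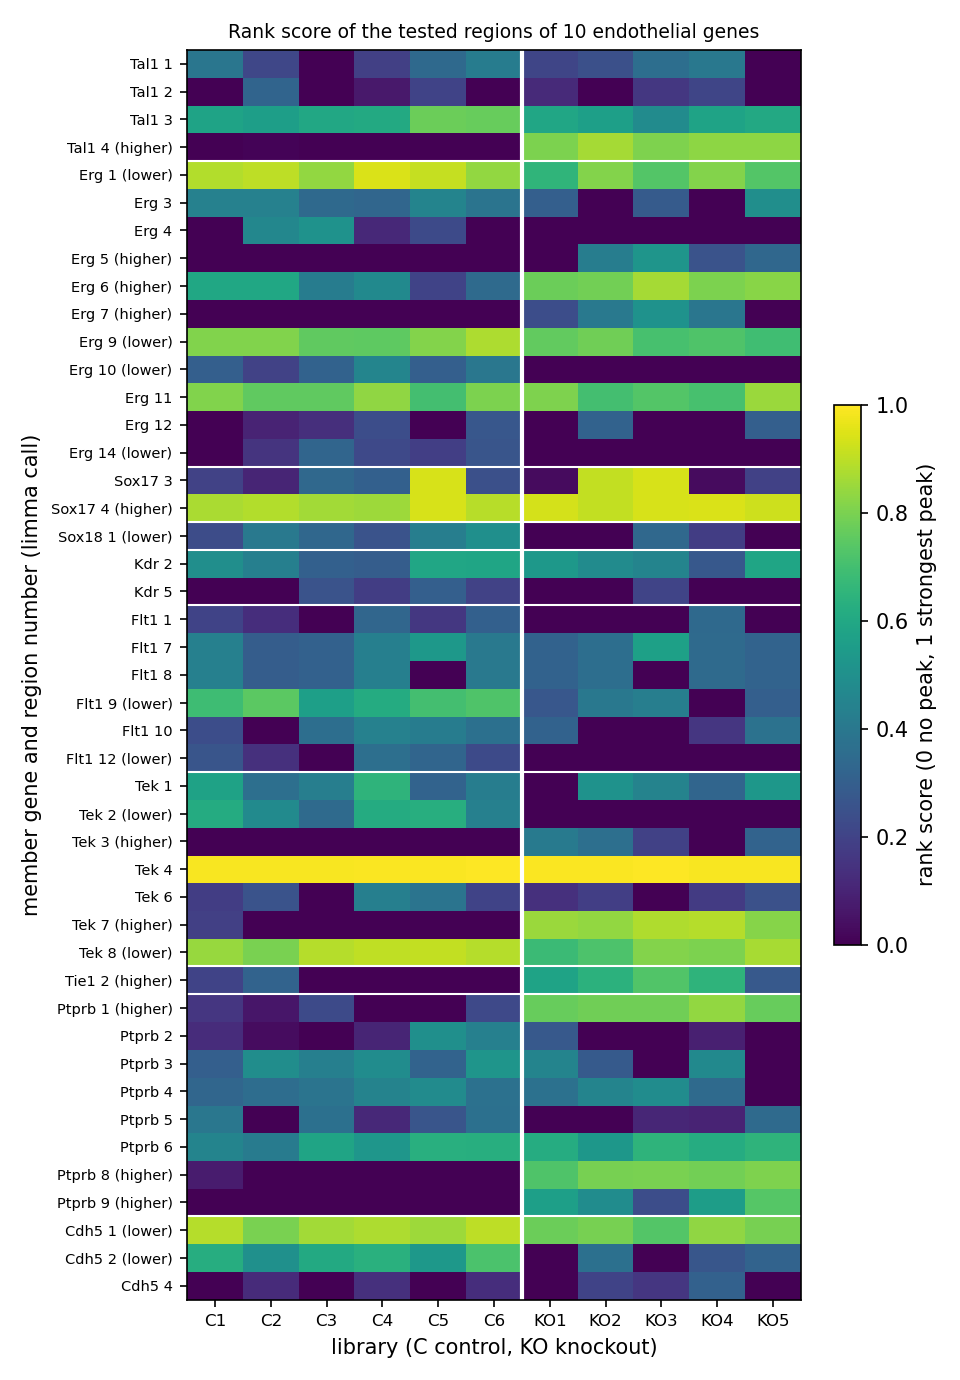
Rank score (colour, 0 for no peak to 1 for the strongest peak) of the 45 tested regions of the 10 genes (rows, numbered along the chromosome within each gene, with the limma call) in the 6 control and 5 knockout libraries (columns). Tal1 region 4, Tek region 7 and Ptprb region 8 are dark in controls and bright in all 5 knockouts, Ptprb region 9 runs from 0.238 to 0.736 in knockouts, and Tek region 2 is dark in all 5 knockouts only.

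**Figure D2:**
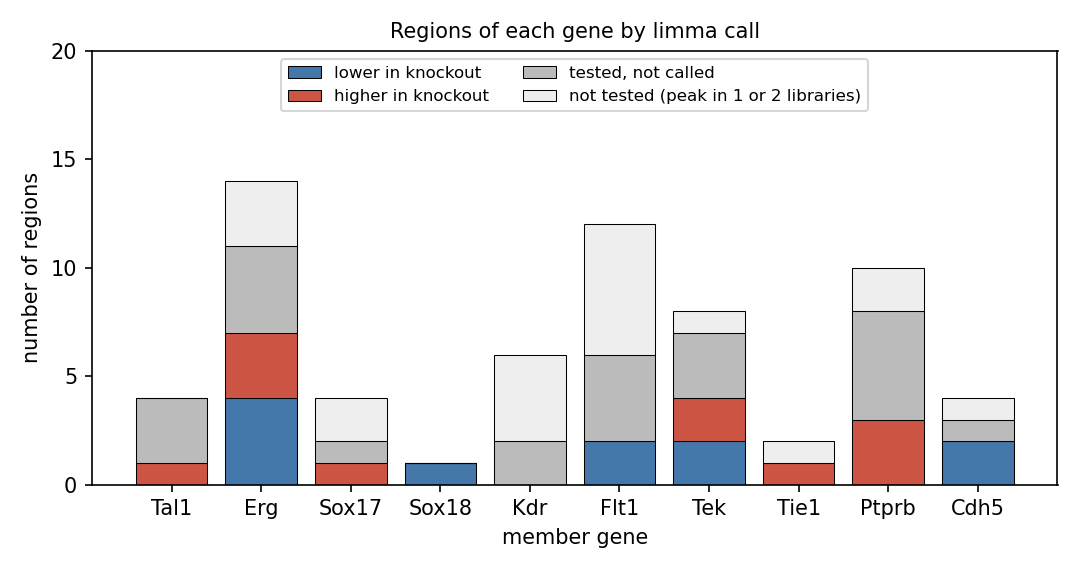
Number of regions (y axis) of each gene (x axis), stacked by limma call; light bars are regions with a peak in 1 or 2 libraries, which were not tested. Erg has the most regions, 14, with 4 lower and 3 higher, and Kdr has 6 with none called.

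Tal1 encodes a bHLH factor that starts the blood and endothelial programme. Its gene (ID 21349, chromosome 4, 115056426 to 115071755) had 4 regions, all tested. Region 4, at 115079618 to 115080017, lies 8063 bp beyond the gene's far end and 8890 bp from the next gene, Pdzk1ip1. Control scores there were 0 in 5 libraries and 0.010 in replicate 2, and knockout scores were 0.803, 0.865, 0.808, 0.832 and 0.830. Every knockout was far above every control. It rose from 0.00163 ± 0.00399 to 0.827 ± 0.0248 (SD, n = 6 and 5, limma adjusted p = 1.75e-08). The authors' fold enrichment at its summit was 16.1 to 21.2 in knockouts and 7.15 in the 1 control with a peak.

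The other Tal1 regions did not pass the test, among them region 1, 3650 bp before the gene (limma adjusted p = 0.903). Region 2, 285 bp past the first annotated start, had a peak in 3 controls and 3 knockouts, with means of 0.0984 ± 0.134 and 0.0977 ± 0.0948 (limma adjusted p = 0.995). In the full lists as deposited 4 controls and 3 knockouts had a peak at region 2. Region 3, inside the gene, was open in all 11 libraries, at 0.649 ± 0.0961 and 0.565 ± 0.0479 (limma adjusted p = 0.176). The 1 called gain of 4 Tal1 regions thus lay at a distance from the start, while the region at the start was weak in both groups.

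Erg, an ETS factor that maintains endothelial identity and junctions, had 14 regions, more than any other member. The gene (ID 13876) spans 227432 bp of chromosome 16, 95359169 to 95586600, on the minus strand. Of its 11 tested regions 4 were lower, 3 higher and 4 not called. The 3 gains lay together in the last part of the gene. Region 6, at 95365344 to 95365743, 93804 bp past the nearest annotated start, had control scores from 0.200 to 0.596 with a median of 0.448. Its knockout scores were 0.774, 0.786, 0.864, 0.801 and 0.821, all above the controls. It rose from 0.439 ± 0.153 to 0.809 ± 0.0353 (SD, n = 6 and 5, limma adjusted p = 3.86e-04), and the rise was 0.186 where peaks were ranked by fold enrichment (limma adjusted p = 0.0478).

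Erg regions 5 and 7, on either side of it, had no peak in any control among the peaks used. Region 5 had one in 4 knockouts, with scores of 0.423, 0.521, 0.256 and 0.335 in replicates 2 to 5 (difference 0.307, limma adjusted p = 0.0067). Region 7 had one in replicates 1 to 4, at 0.238, 0.404, 0.509 and 0.391 (difference 0.309, limma adjusted p = 0.00649). Each missed 1 knockout, so neither gain was complete. In the full lists as deposited, 2 controls had a weaker peak at region 5 and none at region 7.

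Losses at Erg stood nearer its starts and outside the gene. Region 10, at 95573144 to 95573543 and 13249 bp past the first start, had control scores from 0.199 to 0.456 with a median of 0.308, and 0 in every knockout. It fell from 0.328 ± 0.0882 to 0 (SD, n = 6 and 5, limma adjusted p = 3.17e-04), and by 0.588 where peaks were ranked by fold enrichment. Region 14, 33678 bp from the gene, had a peak in 5 controls and 0 knockouts and fell by 0.191 (limma adjusted p = 0.0147). Region 1, on the other side of the gene, was open in all 11 libraries and fell from 0.886 ± 0.0416 to 0.749 ± 0.0676 (limma adjusted p = 0.00224).

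Of the 3 annotated Erg starts, the promoter of the second one overlapped a peak in 6 of 6 controls and 5 of 5 knockouts, and those of the other two in 0 libraries. Region 11, 957 bp past the first start and outside its promoter, was strong in both groups and scored 0.777 ± 0.0483 and 0.760 ± 0.0646 (SD, n = 6 and 5, limma adjusted p = 0.713). Region 9 (95530476 to 95530875), 311 bp before the second start, had lower scores in knockouts, with a change from 0.804 ± 0.0456 to 0.734 ± 0.0365 (limma adjusted p = 0.0434). Control scores there ran from 0.753 to 0.877 with a median of 0.810, knockout scores were 0.759, 0.784, 0.710, 0.725 and 0.694, and the groups overlapped. That call was lost with scores centred per library (-0.0498, limma adjusted p = 0.143) and without any 1 of 7 libraries, control replicates 1, 2, 5 and 6 and knockout replicates 3, 4 and 5 (limma adjusted p up to 0.0958), and the difference was -0.139 with lists shortened to their 36467 strongest peaks.

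Sox17 and Sox18 encode related SOX factors of arterial and lymphatic endothelium, and Sox17 also acts in endoderm. Sox17 (ID 20671, chromosome 1, 4490928 to 4497426) had 4 regions. The single one inside the gene had a peak in 2 controls among the peaks used, or 3 in the full lists, and was not tested. Regions 3 and 4 lie side by side 73989 and 74472 bp away and shared the same peak in 3 libraries. Region 4, at 4571698 to 4572097, had control scores from 0.854 to 0.940 (median 0.878) and knockout scores of 0.937, 0.908, 0.941, 0.945 and 0.923. It rose by 0.0469 (SE 0.0146, limma adjusted p = 0.0211), a small shift of a peak that was strong in every library. The call was lost with the lists as deposited (0.0267, limma adjusted p = 0.102), at a -log10 q of at least 5 (0.0292, limma adjusted p = 0.0960), without limma's trend and robust options (limma adjusted p = 0.0845) and without knockout replicate 4 (limma adjusted p = 0.0509). It was 0.0816 when ranked by fold enrichment and 0.0938 with the shortened lists. Region 3, at 4571215 to 4571614, was not called (difference 0.0657, limma adjusted p = 0.834).

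Sox18 (ID 20672, chromosome 2, 181669837 to 181671640) had 1 region, at 181675423 to 181675822, 3983 bp from the gene and 4674 bp from Tcea2. All 6 controls had a peak, with scores from 0.233 to 0.499 and a median of 0.369. In knockouts only replicates 3 and 4 had one, at 0.336 and 0.180. It fell from 0.359 ± 0.104 to 0.103 ± 0.152 (SD, n = 6 and 5, limma adjusted p = 0.0183), with replicate 3 inside the control range. Ranked by fold enrichment it was not called (-0.127, limma adjusted p = 0.150), and with the shortened lists it had no match.

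Kdr, the main VEGF receptor of endothelium, showed no called change. The gene (ID 16542, chromosome 5, 75932827 to 75979072) had 6 regions, but 4 of them had a peak in 1 or 2 libraries only. Region 2, at 75978293 to 75978692, had its strongest summit 38 bp before the start, within the promoter shown above. Its control scores ran from 0.296 to 0.593 (median 0.464), and knockout scores were 0.535, 0.484, 0.451, 0.275 and 0.588. The groups covered the same range, with means of 0.452 ± 0.131 and 0.467 ± 0.119 (SD, n = 6 and 5, difference 0.0149, SE 0.0729, limma adjusted p = 0.893). Region 5, 70021 bp away at 76048893 to 76049292, had a peak in 4 controls and 1 knockout (difference -0.115, limma adjusted p = 0.195).

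Flt1, the VEGF receptor that acts largely as a trap, kept its start region and fell upstream. The gene (ID 14254, chromosome 5, 147561604 to 147726438, minus strand) had 12 regions, 6 of them tested. Regions 7 and 8 flank the start and read the same peak in 9 libraries. At region 7, 147725486 to 147725885, control scores were 0.293 to 0.532 (median 0.418) and knockout scores 0.314, 0.362, 0.570, 0.347 and 0.317. The groups overlapped (difference -0.0191, SE 0.0639, limma adjusted p = 0.841).

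Region 9 of Flt1, at 147758098 to 147758497, lies 31860 bp outside the gene on the start side. Control scores ran from 0.564 to 0.748 (median 0.696), and knockout scores were 0.272, 0.400, 0.427, 0 and 0.303. All knockouts were below all controls, and the region fell from 0.674 ± 0.0700 to 0.280 ± 0.169 (SD, n = 6 and 5, limma adjusted p = 5.99e-04). Region 12, 66811 bp out, had a peak in 5 controls and 0 knockouts and fell by 0.220 (limma adjusted p = 0.0140). No Flt1 region was higher.

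Tek showed both the loss at its start and one of the greatest gains. The gene (ID 21687, chromosome 4, 94739086 to 94874976, plus strand) had 8 regions, 7 tested, 2 lower and 2 higher. Region 2, at 94738713 to 94739112, had its strongest summit 376 bp before the start and runs into the promoter shown above. Control scores were 0.347 to 0.626 (median 0.545), and each of the 5 knockouts was at 0, also in the full lists as deposited. It fell from 0.519 ± 0.117 to 0 (SD, n = 6 and 5, limma adjusted p = 1.61e-05). With lists shortened to their 36467 strongest peaks, called shorter lists from here on, the difference was -0.118 and not called (limma adjusted p = 0.0914).

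Inside Tek, region 7, at 94835092 to 94835491 and 96003 bp past the start, had a score of 0.190 in control replicate 1 and 0 in the other controls. Knockout scores were 0.851, 0.837, 0.879, 0.889 and 0.818. No library of 1 group reached the range of the other, and the region rose from 0.0316 ± 0.0775 to 0.855 ± 0.0292 (SD, n = 6 and 5, limma adjusted p = 5.18e-08). Summits of the 6 libraries with a peak among those used lay within 49 bp. In the full lists as deposited 2 controls had a peak there. The authors' fold enrichment was 17.7 to 21.8 in knockouts and 10.3 in control replicate 1.

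A second, weaker gain at Tek, region 3, lay 7400 bp past the start, with no control peak and scores of 0.409, 0.365, 0.194 and 0.319 in 4 knockouts (difference 0.257, limma adjusted p = 0.00784). Region 4, 13363 bp past the start, was among the strongest peaks of every library, at 0.991 to 0.998 in controls and 0.992 to 0.997 in knockouts (limma adjusted p = 0.932). Region 8, near the far end, fell from 0.872 ± 0.0425 to 0.778 ± 0.0755 (limma adjusted p = 0.0306). So at Tek the region at the start lost its peak, the strongest region kept its rank and an intragenic region gained a strong peak.

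Tie1, the orphan receptor that pairs with Tek, had 2 regions, both upstream of the gene (ID 21846, chromosome 4, 118471191 to 118489849, minus strand). Region 2, at 118505558 to 118505957, is 15909 bp before the start. Controls 1 and 2 scored 0.201 and 0.318 and the other 4 had no peak among those used, while knockouts scored 0.580, 0.641, 0.727, 0.652 and 0.281. In the full lists as deposited 3 controls had a peak there. Knockout replicate 5 lay within the control range and the other 4 above it. The region rose from 0.0864 ± 0.139 to 0.576 ± 0.173 (SD, n = 6 and 5, limma adjusted p = 6.13e-04), and by 0.240 with the shorter lists (limma adjusted p = 0.00668). Region 1 had a peak in 2 controls only among the peaks used, or 3 in the full lists, and was not tested.

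Ptprb, or VE-PTP, dephosphorylates Tek and supports VE-cadherin junctions. Its gene (ID 19263, chromosome 10, 116275502 to 116389538) had 10 regions, 9 of them inside the gene body. Of 8 tested, 3 were higher and 0 lower. Region 8, at 116379884 to 116380283, scored 0.076 in control replicate 1 and 0 in the other 5, against 0.725, 0.794, 0.798, 0.786 and 0.805 in knockouts. The rise of 0.769 (SE 0.0457, n = 6 and 5, limma adjusted p = 3.83e-08) separated all libraries by genotype.

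Region 1 of Ptprb, at 116297892 to 116298291, had a peak in 4 controls, with scores up to 0.224 (median 0.111), and knockout scores of 0.768, 0.784, 0.784, 0.838 and 0.769. It rose from 0.111 ± 0.104 to 0.788 ± 0.0287 (SD, n = 6 and 5, limma adjusted p = 6.45e-07). Region 9, at 116386297 to 116386696 and 3041 bp from a gene end, had no control peak among those used and knockout scores of 0.565, 0.485, 0.238, 0.557 and 0.736 (difference 0.516, limma adjusted p = 8.96e-05). In the full lists 3 controls had a weaker peak there, and with the shorter lists the rise was 0.143 and not called (limma adjusted p = 0.0994). The 5 Ptprb regions that were not called had differences from -0.184 to 0.0754, with limma adjusted p from 0.143 to 0.563.

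Cdh5, the defining adhesion protein of endothelial junctions, had no region inside its gene body (ID 12562, chromosome 8, 104101613 to 104144504). Its 4 regions lay 1994 to 72825 bp away, and 2 of 3 tested were lower. Region 2, at 104051044 to 104051443 and 50369 bp away, had control scores of 0.501 to 0.715 (median 0.615). Knockouts scored 0, 0.369, 0, 0.266 and 0.320, all below the controls. It fell from 0.602 ± 0.0760 to 0.191 ± 0.178 (SD, n = 6 and 5, limma adjusted p = 7.89e-04), and it fell by 0.205 with shorter lists (limma adjusted p = 0.0178). Region 1 fell from 0.863 ± 0.0365 to 0.787 ± 0.0367 (limma adjusted p = 0.0114). Region 4, at 104146298 to 104146697 and 1994 bp from the gene, had a peak in 3 controls and 3 knockouts (difference 0.0684, limma adjusted p = 0.414).

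**Figure D3:**
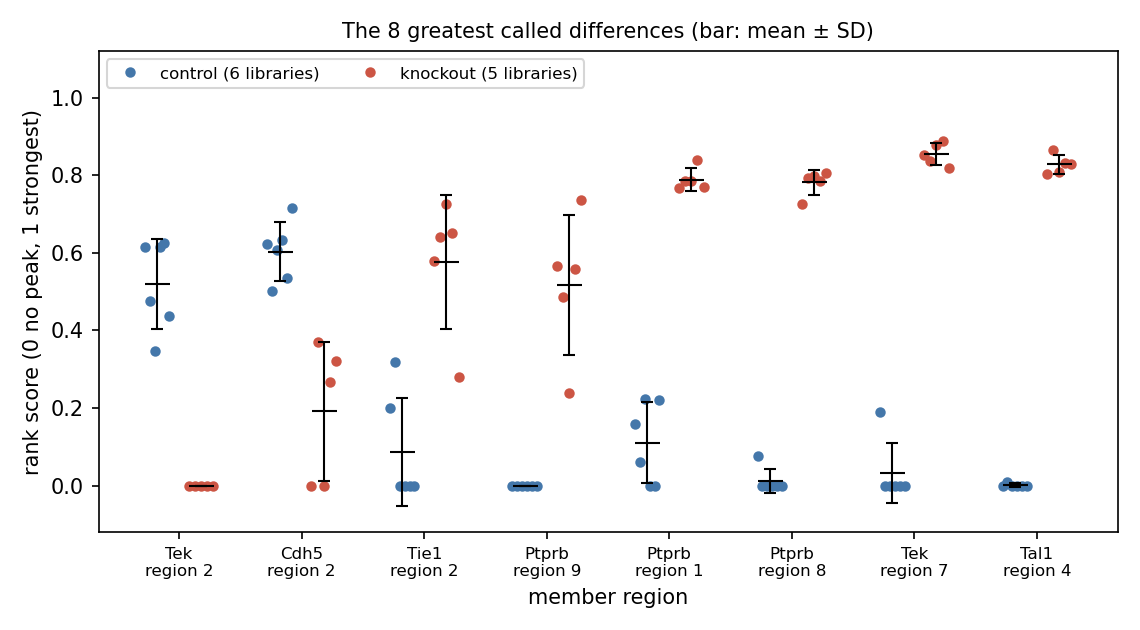
Rank score (y axis) of each library at the 8 member regions with the greatest called differences (x axis), blue points for the 6 controls and red for the 5 knockouts, with the mean ± SD as black bars. Tek region 2 and Cdh5 region 2 are lower in knockouts, and the other 6 are higher, with Tal1 region 4 rising by 0.826.

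The places of the called regions were counted as well. Of the 11 higher regions, 8 lay inside gene bodies and 3 between genes, and of the 11 lower ones 3 lay inside, 7 between genes and 1 within 1 kb of a gene end. Members numbered 20 tested regions inside gene bodies, 19 between genes and 6 at gene ends. Over all regions, 24.9% were lower and 19.1% higher inside gene bodies, 23.0% and 19.5% between genes and 9.63% and 6.59% at gene ends. Neither gains against losses nor members against other regions were tested for place.

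**Figure D4:**
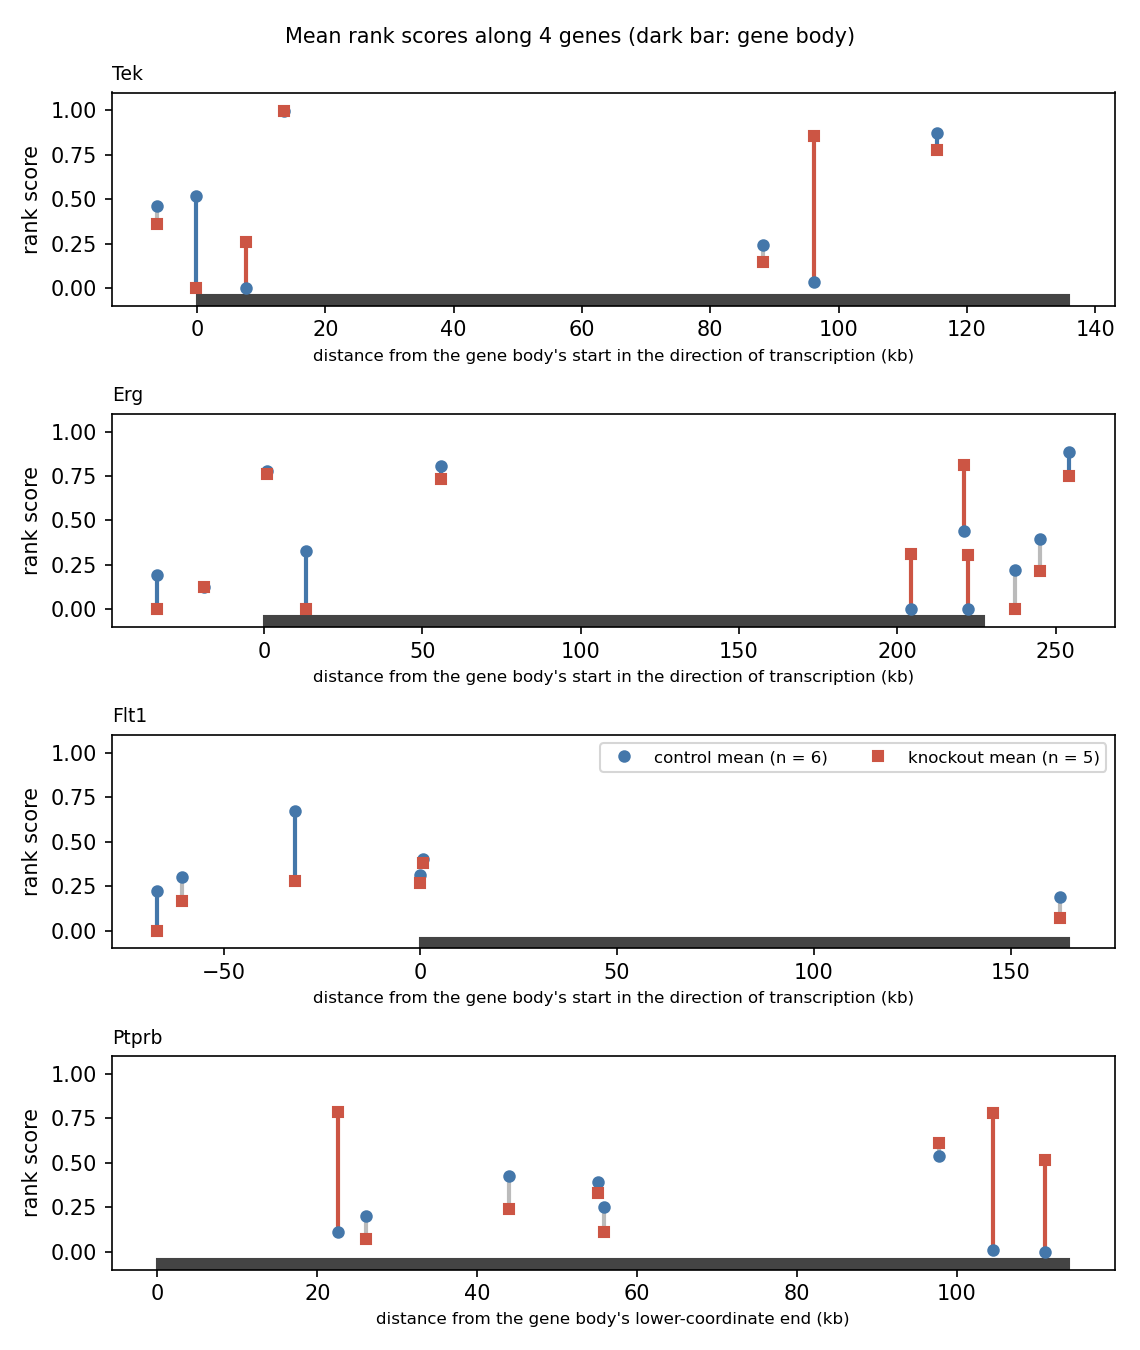
Mean rank score (y axis) of tested regions along Tek, Erg, Flt1 and Ptprb (x axis, distance in kb from the start, or for Ptprb from its lower-coordinate end), blue circles for controls and red squares for knockouts, joined by a line coloured blue or red where limma called a fall or rise and grey otherwise. At Erg the 3 rises lie in the last part of the gene, and at Flt1 the 2 falls lie outside it on the start side.

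Member regions were open in fewer libraries than regions at large. A peak in all 11 libraries was found at 13 of 45 (28.9%), against 43.8% of all tested regions, and the median control score was 0.312 against 0.401. The 2 sets differ in place, which was not taken into account. Gene ends held 13.3% of tested members and 23.7% of all tested regions, and 42.2% and 25.3% lay between genes. Scores of the groups did not overlap at 5 lower and 6 higher members, where all regions gave 12.1% and 10.9%. A peak in all 6 controls and no knockout was found at 2 members, Tek region 2 and Erg region 10 (2.94% of all regions), and the reverse at 1, Ptprb region 9 (3.89%).

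Presence alone gave a similar picture. By Fisher's exact test, adjusted after Benjamini and Hochberg and usable where 4 to 7 libraries have a peak, 5 of 19 members favoured controls and 7 favoured knockouts. The shares over all 24732 such regions were 23.9% and 23.3%. Erg region 4 was called by this test (exact test adjusted p = 0.0321, 5 controls and 0 knockouts) but not by limma (difference -0.220, adjusted p = 0.0740). With any 1 library left out, Fisher's exact test called 3 to 7 members in all.

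The filter and the distance limit each left regions out. Of the 20 untested regions, 13 had a peak in 1 library and 7 in 2, with 6 at Flt1, 4 at Kdr, 3 at Erg, 2 each at Sox17 and Ptprb and 1 each at Tek, Tie1 and Cdh5. The member region farthest from its gene was 80514 bp from Kdr, with a peak in 1 control. Just outside the limit, 100315 bp from Kdr, a region had a peak in 4 controls and 0 knockouts, with mean scores of 0.202 and 0, and was called lower. A region 106317 bp from Kdr scored 0.112 in controls and 0.708 in knockouts and was called higher. Also called higher were a region 125166 bp from Sox17 (0.431 and 0.637) and regions 271063 and 271500 bp from Cdh5. The Cdh5 regions scored 0 in controls and 0.765 and 0.283 in knockouts. The other regions out to 300 kb were not called or not tested.

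Other genes of endothelium showed both directions as well. A list of 73 further transcription factors, receptors, ligands and surface proteins had 408 tested regions at 69 genes. Of these, 88 regions were lower (21.6%) and 76 higher (18.6%), beside the background shares above, and the median difference was -0.0282 against -0.0208 over all regions and -0.0634 over the members. By gene, 17 had lower regions only, 9 higher only, 22 both and 21 none called.

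Among the losses, Foxo1, a forkhead factor that keeps endothelium quiescent, had 6 lower and 4 higher of 20 regions, the greatest fall from 0.674 ± 0.304 to 0 (limma adjusted p = 5.53e-04). Palmd, encoding palmdelphin, had 5 lower of 6 and none higher, where the greatest difference was -0.295 (limma adjusted p = 1e-04). Ets1 and Ets2, relatives of Erg, had 6 lower and 8 higher of 23 and 5 lower and 3 higher of 20. Their greatest changes were rises from 0 to 0.511 ± 0.111 and to 0.505 ± 0.0558, and their most negative differences were -0.290 and -0.323. Ets1 also had more higher regions than any other gene of the list.

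Gains outnumbered losses at S1pr1, the sphingosine-1-phosphate receptor of vessels, with 7 higher and 2 lower of 13 regions. Its greatest rise was from 0 to 0.949 ± 0.0145, 48452 bp from the gene (limma adjusted p = 9.04e-09). Vegfa, the ligand of Kdr and Flt1, which epithelium itself makes, had 5 higher and 1 lower of 18, with a greatest rise of 0.688. Angpt1, the ligand of Tek, had 4 higher and 2 lower of 12, and its greatest rise was from 0 to 0.580 ± 0.0427 (limma adjusted p = 4.54e-07). Angpt2, the other Tek ligand in the list, had 3 lower and 0 higher of 5 regions, the greatest fall from 0.614 ± 0.0953 to 0.0276 ± 0.0618, and is named after its values were seen.

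Marker regions of other cell types were read in the same way. The 10 epithelial markers, among them Epcam, Cdh1 and Nkx2-1, all had tested regions, and the control mean of 0.392 ± 0.0224 lay beside a knockout mean of 0.388 ± 0.0185 (SD, n = 6 and 5). Single regions did change: of their 94 tested regions 16 were lower and 16 higher (17.0% each). By gene, 4 had higher regions only, 3 had both and 3 had none called. Of 10 endothelial markers, 9 had tested regions and Icam2 had none. Their 34 regions had a summed score of 11.6 to 13.6 in controls and 11.4 to 13.0 in knockouts. Of these regions 6 were lower and 6 higher (17.6% each), against 20.8% and 17.0% of all tested regions. All 10 endothelial markers are also in the list of 73 further genes above, so the same regions were counted there. Losses alone were called at Pecam1 (1 of 3 regions), Cldn5 (1 of 5), Esam (1 of 1) and Cd34 (1 of 6), and both directions at Emcn (1 lower and 2 higher of 4) and Vwf (1 lower and 2 higher of 8). Egfl7 had gains alone, at 2 of 5 regions, the greater from 0.311 ± 0.169 to 0.864 ± 0.0209 (SD, n = 6 and 5, limma adjusted p = 2.64e-05), and Plvap and Robo4 had none called of 1 each.

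Blood markers had regions at 7 of 10 genes, with none tested at Cd53, Gata1 and Hbb-bs, and sums of 6.09 to 8.19 in controls and 6.61 to 8.06 in knockouts. Of their 20 tested regions, 3 were lower (15.0%) and 0 higher. All 10 mesenchymal markers had regions, and their sums were 11.6 to 13.5 in controls and 8.96 to 11.4 in knockouts, which do not overlap. Of their 32 tested regions, 6 were lower (18.8%) and 3 higher (9.38%). The mean over the 45 member regions was 0.359 ± 0.0259 and 0.387 ± 0.0183, with ranges of 0.328 to 0.388 and 0.360 to 0.406. The part that other cell types among the captured cells have in the member regions was not tested.

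**Figure D5:**
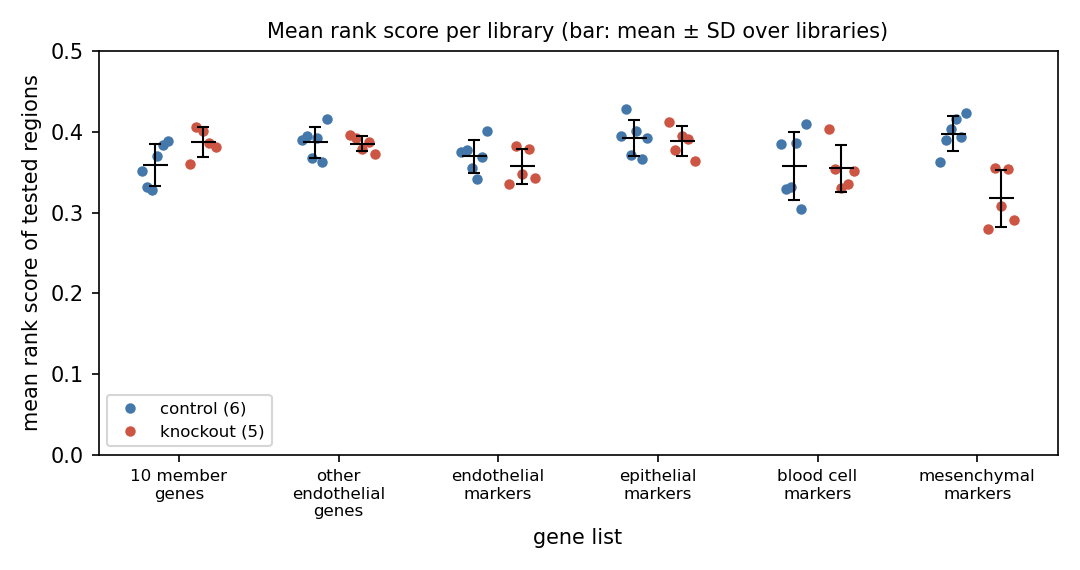
Mean rank score of the tested regions of each gene list (y axis) in every library, blue for the 6 controls and red for the 5 knockouts, with the mean ± SD over libraries in black. The groups overlap for the 10 member genes and for the endothelial and epithelial markers, and the knockouts lie lower for the mesenchymal markers.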

How the data were processed

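ATAC-seq peak lists of 11 libraries, 6 control and 5 knockout, were analysed, 1 list per library. The authors' tools were MACS2, DiffBind 3 and deepTools and the build mm10, per the submitters' processing notes, which give no roles. The sources used here name no aligner, filter or read depth. The deposited lists hold, for each peak, a score, a fold enrichment (a ratio), a -log10 p, a -log10 q and a summit. All are the authors' values within a library and depend on its depth.

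The shortest list held 72935 peaks, and as many of the highest -log10 p were kept and ranked in each. Windows of 400 bp were centred on summits, the best-ranked of overlapping windows was kept, and a library had the region where a peak overlapped it by 100 bp. The 83262 regions of 101557 present in 3 or more libraries were fitted by genotype alone in limma (version 3.58.1, under R 4.3.3, with its robust and trend options), with Benjamini-Hochberg adjustment over all of them at 0.05. Presence was compared with Fisher's exact test. Regions went to the nearest protein-coding gene body of the RefSeq GRCm38.p6 annotation within 100 kb. No member region was tied between gene bodies. The fit was tested on simulated data with normally distributed spread. These did not model absent peaks set to 0, so groups without any peak were not covered.

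Members and lists were chosen with earlier results of these data known. Named for each gene were the tested region nearest a start in the RefSeq promoter table (or nearest a gene end where the table had none), the greatest called fall and the greatest called rise, or the greatest difference where none was called. The 8 greatest called differences were also named. Of the other endothelial genes, the 4 per direction with most called regions were named. Other regions are described after their values were seen. Alternatives covered list length, -log10 q, ranking, overlap, filter, merging, centring, fit, replicate block, gene distance and leaving out each library. Tables and tests used pandas 2.3.3, numpy 2.4.6 and scipy 1.17.1 under Python 3.11.15, and figures matplotlib 3.10.9.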

Additional observations from a re-analysis of the deposited data

Results flagged for a closer look

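Among 20 named regions, or 40 groups of libraries, 8 had a single library standing apart from the rest of its group by Dixon's criterion, which chance meets in about 1 of 20 groups. Where most libraries of a group have no peak, any single peak meets it. This holds for Tal1 region 4 (0.010 in control replicate 2), Tek region 7 (0.190 in control replicate 1), Ptprb region 8 (0.076 in control replicate 1) and Kdr region 5 (0.204 in knockout replicate 3). At Ptprb region 8 knockout replicate 1 was low within its group, at 0.725, and at Ptprb region 1 knockout replicate 4 was high, at 0.838. At Flt1 region 7, by the gene's start, knockout replicate 3 scored 0.570 and the other knockouts at most 0.362. At Sox17 region 3 control replicate 5 scored 0.940, where its window read the same peak as its neighbour, region 4.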

How the results depend on the processing

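The 11 lower and 11 higher member regions, of 45 tested, became 6 and 7 of 21 tested with each list shortened to its 36467 strongest peaks. Of all regions tested under that setting, 21.4% were lower and 19.6% higher. Fisher's exact test then called 7 members in place of 12, and the other endothelial genes had 53 lower and 42 higher. With each library left out in turn the members gave 9 to 11 lower and 10 to 11 higher, and Fisher's exact test 3 to 7, with fewer libraries in each test. Over all regions tested, leaving out a library gave 19.0% to 21.2% lower and 15.9% to 17.3% higher in limma. The lower share of all called regions was 55.1% here, 45.9% with scores centred per library and 67.4% with the lists as deposited. Members were then 8 lower and 11 higher of 45 tested, and 14 and 9 of 57. Deviations of same-numbered libraries were at most weakly correlated (from -0.0234 to 0.139), though 2 of 5 knockouts correlated best with the control of their number. The numbers were not taken as pairs. With the replicate block, 9 members were lower and 10 higher, and Sox18 region 1 (limma adjusted p = 0.0630), Sox17 region 4 (0.0532) and Erg region 9 (0.0954) were not called. Of all regions tested, the block gave 18.1% lower and 14.9% higher. For the 14 named regions that were called, 287 of 306 values under alternatives kept direction and side of the threshold, 19 lost the call and 0 changed sign. For the 6 that were not called, 23 of 127 values changed sign, at 5 regions and with limma adjusted p of 0.521 or more, so these 5 have no stable direction. Kdr region 5 kept its sign in all 21 of its values. Sox17 region 3 was called with merged peaks, where it had the value of region 4 (0.0469, limma adjusted p = 0.016). The lists as deposited gave -0.000282 at Cdh5 region 4, -0.0498 at Kdr region 2 and -0.0394 at Sox17 region 3. A -log10 q of at least 5 gave -0.00466, -0.0510 and -0.0422 at the same regions. At Kdr region 2 the shortened lists gave -0.0107 and merged peaks -0.00128. Ranking by fold enrichment gave 0.0633 at Flt1 region 7 and 0.0194 at Tal1 region 2, and centred scores gave 0.000673 and 0.0190. With each library left out in turn, Flt1 region 7 ran from -0.0661 to 0.00712, Kdr region 2 from -0.0163 to 0.0627, Sox17 region 3 from -0.0645 to 0.183 and Tal1 region 2 from -0.0286 to 0.0438. With the shortened lists 7 named regions had no match and gave no value, among them the called Erg region 10 and Sox18 region 1. Read depth is unknown, so a region without a peak may be under the detection limit of its library.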
